A study of Arabidopsis thaliana with 8 samples.

Results

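Arabidopsis thaliana seedlings that had spent 30 h at 37 °C were moved back to 22 °C, and their transcripts were compared between 2 days later and the end of the heat. The comparison sets the 2 arrays of heated plants with 2 days of recovery against the 2 arrays of heated plants without recovery, 4 of the 8 arrays in the series. It covers 22746 of the 22810 probe sets on the array, all but the 64 control probe sets. Mock plants, which stayed at 22 °C throughout, were sampled at both times and give 2 more groups of 2 arrays. Plants of all 4 groups were grown in vitro for 3 weeks in long days before the treatment, and seedling tissue was taken. Each array is labelled as a separate biological replicate, but the genotype and the number of plants behind an array are not given in the sources used here. In whole seedlings, fewer cells of a type and less RNA per cell cannot be told apart.

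When plants meet heat, heat shock transcription factors switch on genes for chaperones, proteins that hold or refold other proteins, and growth and photosynthesis genes are commonly turned down. Back at a moderate temperature the factors are shut off again, and transcripts of chaperones decay while growth resumes. Some chaperones persist for days and are known in Arabidopsis for their part in the memory of an earlier heat episode.

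Levels are on a log2 scale, where 1 unit is a 2-fold change, and values below 2.3 were read as the floor of the signal. The medians of the 8 arrays lay between 5.04 and 5.11, and 30.8% to 31.8% of the values of an array were at the floor. Replicate arrays correlated at 0.9946 to 0.9962 across probe sets. The 3 green tissue markers with a probe set, LHCB4.2, PSBY and PSAE-1, were at 10 or higher on all 8 arrays. Among root markers PYK10 lay between 8.78 and 12.16, while EXPA7 and EXPA18, of root hairs, were at the floor on every array. The summed log2 level of the 3 root markers was 16.29 and 16.52 in recovered plants and 13.14 and 13.37 in unrecovered plants, so only PYK10 moved. The summed level of the green markers was 40.53 and 40.72 in recovered and 33.56 and 33.75 in unrecovered plants, and the part of a shift between tissues in the results below was not tested.

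Over the 2 days the transcripts of heated plants moved on a large scale. At an adjusted p under 0.05 (limma, Benjamini-Hochberg over all probe sets), 9081 probe sets (39.9%) differed between recovered and unrecovered plants. Of these 4336 (19.1%) rose and 4745 (20.9%) fell, and 2722 of the rises and 2780 of the falls were at least 2-fold. A change of 16-fold or more was seen in 183 of the rises and 223 of the falls. At an unadjusted p under 0.05 there were 10389. The median change over all probe sets was 0.00. For 332 of the falls the recovered plants were at the floor on both arrays, and for 92 of the rises the unrecovered plants were, so that those changes are minimum sizes, written below as "at least". A gene was listed for 4936 of the called probe sets. The largest rise and the largest fall of all, 10.88 and -10.54 on the log2 scale, belonged to probe sets with no gene listed here.

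The same 2 days changed mock plants far less. Between mock plants at the later and the earlier time, 18 probe sets were called (0.0791%), 10 higher (0.044%) and 8 lower (0.0352%), with 1964 at an unadjusted p under 0.05. The mock count was 169 to 361 without any 1 mock array, and 4 to 6 without any 1 array of heated plants. A change of at least 2 log2 units was found in 9.36% of all probe sets in heated plants and in 0.101% in mock plants. Among the probe sets called in heated plants, the median size of change was 1.2 in heated plants and 0.14 in mock plants. Those probe sets were chosen by their change in heated plants, so a larger median there was set in advance. The change in heated plants was also tested directly against that in mock plants. It differed for 7350 probe sets (32.3%), of which 3504 (15.4%) were more positive and 3846 (16.9%) more negative in heated plants. Of the 9081 probe sets called in heated plants 7089, or 78.1%, were called in this test too, which shares the heat arrays with the first.

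**Figure D1:**
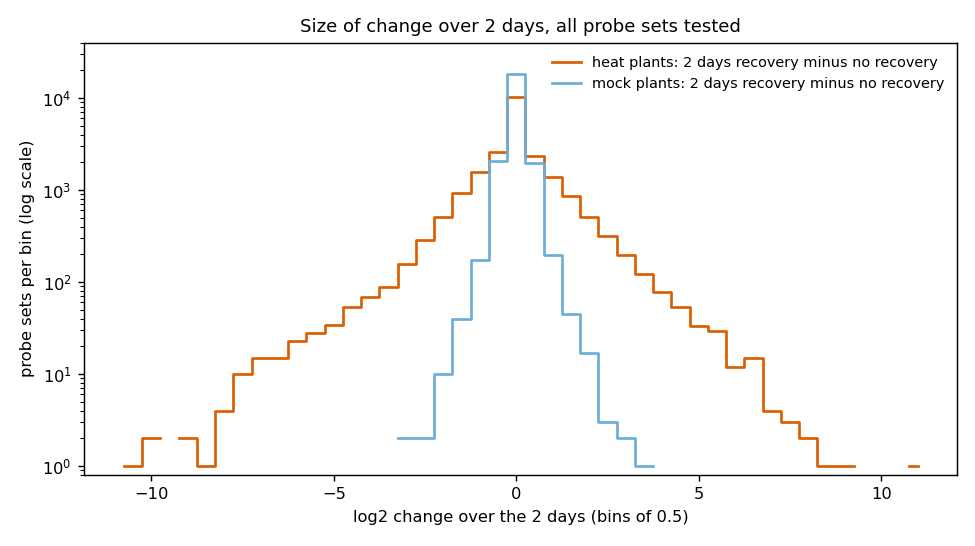
Number of probe sets (log axis) in each bin of log2 change over the 2 days, for heated plants (orange) and mock plants (blue), with 2 arrays at each time. Mock changes crowd around 0, where 1.03% reach 1 log2 unit in either direction, and 25.5% of the changes in heated plants do.

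The 10 largest falls took in a protein of drying tissue, a partner of heat shock proteins and a sugar transporter. AT3G02480 stood at 3.04 and 3.00 in recovered plants and at 13.04 and 13.48 in unrecovered plants, and fell by 10.24 ± 0.15 (log2 change ± standard error, n = 2 arrays per group). LEA4-5, a late embryogenesis abundant protein of the kind that accumulates in drying tissue, was at the floor on both recovered arrays (2.18 and 2.18) and at 9.85 and 10.59 in unrecovered plants, a fall of at least 8.04 ± 0.25. The groups were far apart for both genes, and both recovered arrays of LEA4-5 had the value of the mock arrays. ROF2 (AT5G48570), a peptidyl-prolyl isomerase that works with heat shock proteins, had 6.41 and 6.52 in recovered and 13.85 and 13.98 in unrecovered plants. It fell by 7.45 ± 0.40 but stayed above all 4 mock arrays, whose highest value was 5.08. SAG29 (SWEET15), a sugar transporter, had 2.19 and 3.30 in recovered and 9.50 and 10.68 in unrecovered plants and fell by 7.34 ± 0.55. The other 6 of the 10 largest falls were AT5G51440 (at least 8.07), AT2G07722 (8.0), AT3G17520 (at least 7.42), AT2G18190 (7.37), AT3G28270 (at least 7.31) and ATHSP22.0 (7.27), as sizes of the log2 fall. Adjusted p over the 10 ran between 1.62e-06 and 9.88e-04.

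The 10 largest rises were of genes with low signal at the end of the heat, none above 5.63 on any array of unrecovered plants. AT3G15450 stood at 13.18 and 12.96 in recovered plants and at 3.84 and 4.29 in unrecovered plants, a rise of 9.0 ± 0.18. AT3G15630 had 10.58 and 10.97 in recovered and 3.00 and 3.09 in unrecovered plants and rose by 7.73 ± 0.23. DEWAX (AT5G61590), a transcription factor that holds down wax synthesis, had 11.53 and 11.55 in recovered plants against 4.1 and 5.63 in unrecovered plants and rose by 6.68 ± 0.52. In each of these 3 genes the recovered arrays were close to each other and more than 5 units above the unrecovered ones. The others of the 10 largest rises were AT1G23390 (6.89), AT1G52200 (6.83), AT2G20670 (6.6), AT5G62280 (6.55), AT4G27450 (6.53), AT2G37130 (6.47) and AT5G48490 (6.37). Adjusted p over the 10 ran between 1.55e-05 and 0.00104, and their changes in mock plants over the same 2 days lay between -0.48 and 0.78, with none of them called.

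**Figure D2:**
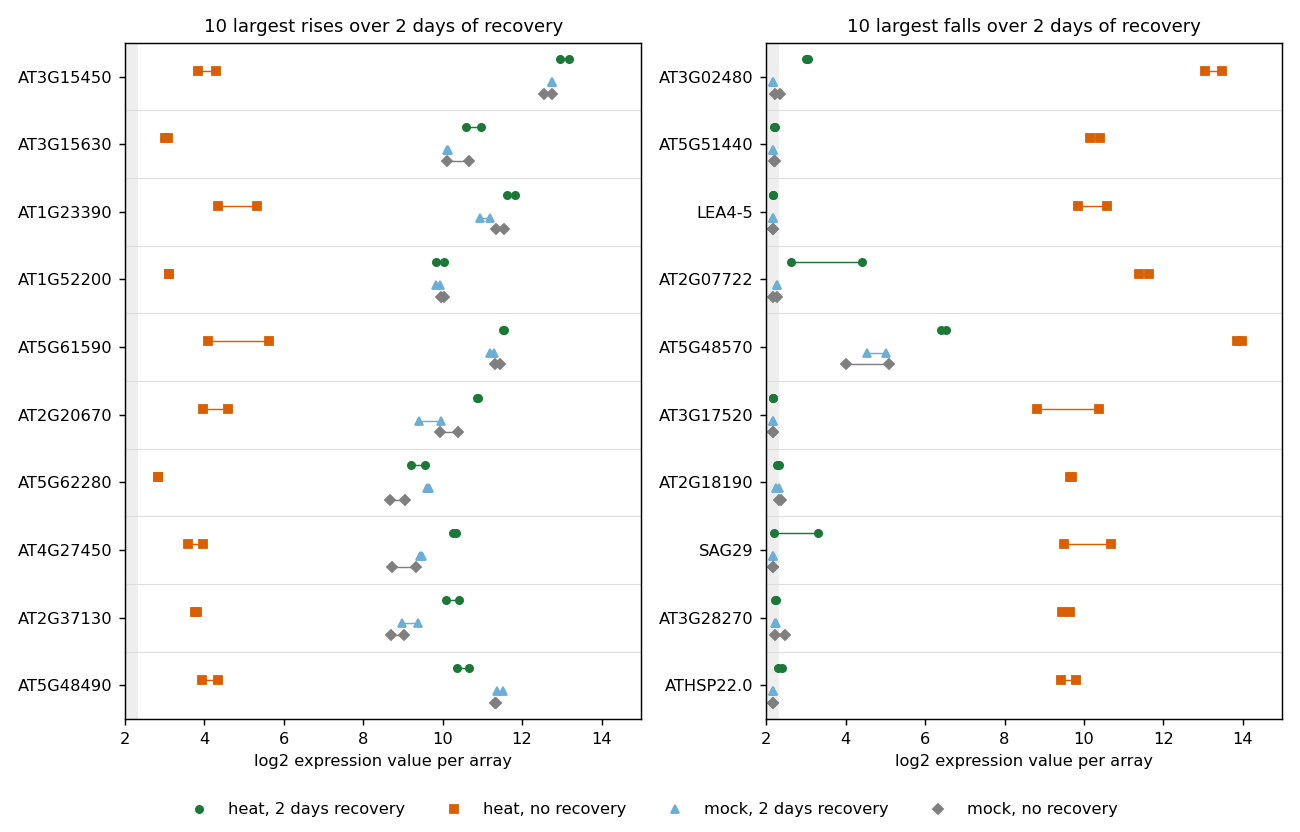
Log2 value on each array (x axis, 2 symbols per group joined by a line) for the 10 genes with the largest rises and the 10 with the largest falls, with the floor shaded. Recovered plants (green) lie beside both mock groups for most genes, and unrecovered plants (orange) stand far from the other 3 groups in all 20.

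No member of the gene lists described below was called in mock plants, which does not show that mock plants stayed the same. Over all probe sets 39.9% were called in heated plants, 19.1% higher and 20.9% lower. The share was 93.3% of mitochondrial genes, 90% of small heat shock proteins, 88.9% of amino acid breakdown genes and 88.2% of chaperones and partners. It was 87.5% for light reactions, 80% for ribosome production, 76.9% for tetrapyrrole synthesis and 71.4% for tubulins. Genes for small heat shock proteins, which bind unfolding proteins and keep them from clumping, fell steeply as a group. Of 10 measured members 8 fell, 1 rose and 1 was not called, with a median log2 change of -5.28. The change over the 2 days differed from that of mock plants for 9 of them, 8 more negative and 1 more positive. AT5G51440 had 2.19 and 2.21 in recovered plants and 10.40 and 10.15 in unrecovered plants. ATHSP22.0, whose protein resides in the endoplasmic reticulum, had 2.29 and 2.39 against 9.43 and 9.79. AT1G52560 had 2.36 and 2.52 in recovered and 9.18 and 9.28 in unrecovered plants and fell by 6.79 ± 0.07 (limma adjusted p = 1.21e-05). On average these 3 members were within 0.2 units of mock plants of the same time. For 6 of the 10 members both recovered arrays were above all 4 mock arrays, in ATHSP22.0 and AT1G52560 only slightly. AT5G37670 was at 6.47 and 6.17 in recovered plants, 1.22 above later mock plants (limma adjusted p = 0.0646). AT1G53540 and AT2G29500 stayed the farthest above. AT1G53540 was at 6.30 and 7.03 in recovered plants and 12.82 and 12.88 in unrecovered plants, a fall of 6.19 ± 0.28, and mock plants had 2.71 and 2.37 at the same time. AT2G29500 was at 6.41 and 7.09 in recovered plants and 12.60 and 12.96 in unrecovered plants, a fall of 6.03 ± 0.37, with 3.2 and 3.28 in mock plants at the same time. AT4G21870 moved the other way, with 9.45 and 9.59 in recovered and 6.87 and 7.15 in unrecovered plants, a rise of 2.51 ± 0.13 (limma adjusted p = 4.00e-04).

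Larger chaperones and their partners went the same way. Of 17 measured 14 fell, 1 rose and 2 were not called, with a median of -2.89. Hop3, which passes client proteins between the chaperones HSP70 and HSP90, had 2.71 and 3.06 in recovered plants and 10.21 and 10.03 in unrecovered plants and fell by 7.24 ± 0.14. Cpn60beta2, part of the chloroplast chaperonin, fell by 4.69 ± 0.10. HSA32, a protein known for the memory of heat in Arabidopsis, had 4.52 and 4.77 in recovered and 9.14 and 9.10 in unrecovered plants, a fall of 4.47 ± 0.11 that left it 0.40 above mock plants of the same time (adjusted p = 0.266, limma). Its recovered arrays were above all mock arrays, while those of Cpn60beta2 were below them. Fes1B, one of 3 measured Fes1 nucleotide exchange factors of HSP70, had 8.78 and 8.58 in recovered against 5.85 and 5.45 in unrecovered plants and rose by 3.03 ± 0.15.

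**Figure D3:**
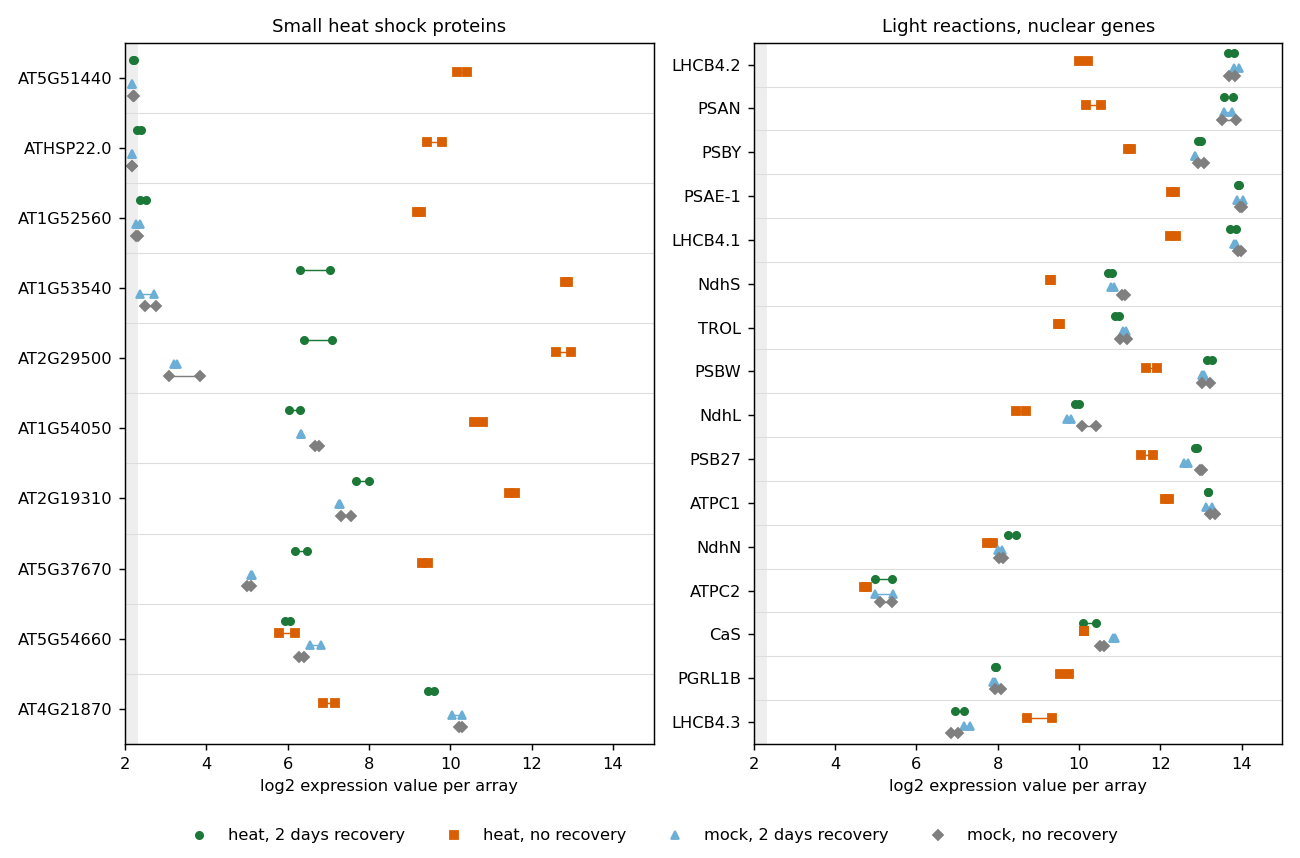
Log2 value on each array (2 symbols per group) for the 10 measured small heat shock proteins (left) and 16 nuclear genes of the light reactions (right), with the floor shaded. Unrecovered plants (orange) stand to the right of all other groups for 8 small heat shock proteins. Of these, AT1G53540 and AT2G29500 remain the farthest above the mock values after 2 days (green).

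Genes of the endoplasmic reticulum, where secreted proteins fold, fell by less. Of 13 measured 6 fell, 1 rose and 6 were not called (median -0.46), a share of 53.8% called against 39.9% of all probe sets. ATERDJ3B, a chaperone partner of that compartment, had 7.72 and 7.93 in recovered and 9.86 and 9.79 in unrecovered plants and fell by 2.00 ± 0.09. BZIP28, a membrane-bound transcription factor of the unfolded protein response, fell by 1.88 ± 0.12, and PDIL5-1, a protein disulfide isomerase, by 1.39 ± 0.11. ATERDJ2B rose by 0.80 ± 0.14, a call that ended without heat, 2 days recovery, replicate 1 and without heat, no recovery, replicate 1. The difference of its change from that in mock plants was not called (limma adjusted p = 0.0761).

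Dehydration and cold genes were divided. Of 16 measured 9 fell and 4 rose (median -0.70), a share of 81.2% called against 39.9% of all probe sets. Besides LEA4-5, LEA18 was at the floor in recovered plants (2.18 and 2.18) and at 7.42 and 8.82 in unrecovered plants, a fall of at least 5.94 ± 0.47. HIS1-3, a linker histone known to rise with drought, went against the list at 9.65 and 8.95 in recovered and 6.47 and 6.56 in unrecovered plants, a rise of 2.78 ± 0.25. With only the 4 arrays of the comparison in the fit, 6 members were called in place of 13.

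Signal on probe sets of mitochondrial genes fell steeply. Of 15 measured 13 fell, 1 rose and 1 was not called, with a median of -5.28. Mitochondrial DNA is also inserted in chromosome 2, and transcripts of that copy cannot be told apart from those of the organelle here. matR, a maturase for introns, had 2.18 and 2.32 in recovered and 8.34 and 8.16 in unrecovered plants and fell by 6.0 ± 0.08. The fall was 4.95 ± 0.06 for ccb206, of cytochrome c maturation, and 4.36 ± 0.05 for nad7, of respiratory complex I. For these 3 genes the recovered arrays were within 0.3 units of the mock mean of the same time. ccb382 rose by 1.24 ± 0.10. Over the whole list the summed log2 level was 71.59 and 79.13 in recovered and 142.28 and 144.66 in unrecovered plants, and the recovered arrays were both above all mock arrays for 8 of the 15 genes. The control probe set for 25S ribosomal RNA, which like most mitochondrial transcripts lacks a long poly(A) tail, moved alongside. It was at 11.89 ± 0.14 in recovered and 13.49 ± 0.11 in unrecovered plants (SD, n = 2), and at 11.74 ± 0.32 in mock plants of the later time, and its part in the result was not tested.

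Nuclear genes of respiration changed less. Of 16 measured for the respiratory chain and the tricarboxylic acid cycle, 7 fell and 1 rose (median -0.49), and 3 were at the floor on all arrays. The 50% called stood beside 39.9% of all probe sets. MPPBETA, of the mitochondrial processing peptidase, fell by 1.17 ± 0.07, cytochrome c CYTC-1 by 1.14 ± 0.08 and the isocitrate dehydrogenase IDH-VI by 1.87 ± 0.19. NDB1, an alternative NAD(P)H dehydrogenase, rose by 1.16 ± 0.27, but the difference from its change in mock plants was not called (limma adjusted p = 0.102). The rise itself was called in the fit of all 8 arrays (adjusted p = 0.0271) and without heat, no recovery, replicate 1. This call ended without any other single array and with only the 4 arrays compared (limma adjusted p = 0.142). The list had 4 calls with only the 4 arrays compared, and 5 without either array of recovered plants.

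Genes of ribosome production fell. Of 10 measured genes for RNA polymerases I and III and the processing of ribosomal RNA, 8 fell and 2 were not called (median -1.93). NRPA1, the largest subunit of RNA polymerase I, had 4.50 and 4.94 in recovered and 7.55 and 7.31 in unrecovered plants and fell by 2.71 ± 0.18. Its partner NRPA2 fell by 1.91 ± 0.07, and RRP41 of the RNA-degrading exosome by 1.64 ± 0.11. For 9 of the 10 genes both unrecovered arrays were above all 4 mock arrays, and for 1 both recovered arrays were.

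Photosynthesis genes of the nucleus rose. Of 16 measured for the light reactions 12 rose, 2 fell and 2 were not called, with a median of 1.4. LHCB4.2, an antenna protein of photosystem II, had 13.67 and 13.82 in recovered plants and 10.23 and 10 in unrecovered plants and rose by 3.63 ± 0.11. PSBY of photosystem II rose by 1.72 ± 0.06, PSAE-1 of photosystem I by 1.62 ± 0.06, and NdhS, of the chloroplast NADH dehydrogenase-like complex, by 1.47 ± 0.05. PGRL1B, of cyclic electron flow around photosystem I, fell by 1.70 ± 0.09, with 7.96 and 7.93 in recovered and 9.54 and 9.75 in unrecovered plants. For 9 of the 16 both recovered arrays lay within the range of the 4 mock arrays, and for 0 of them did both unrecovered arrays.

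All 3 measured Calvin cycle genes rose. The changes were 1.5 ± 0.08 for PRK, phosphoribulokinase, 0.94 ± 0.05 for SBPASE, sedoheptulose bisphosphatase, and 0.44 ± 0.06 for RCA, the activase of Rubisco. PRK had 12.21 and 12.13 in recovered and 10.62 and 10.70 in unrecovered plants, and 12.51 and 12.34 in mock plants of the later time. The call of RCA ended with only the 4 arrays compared (limma adjusted p = 0.0671).

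Of 13 genes of tetrapyrrole synthesis, the route to chlorophyll and haem, 10 rose and 3 were not called (median 1.34), with 2 of the 3 at the floor on all arrays. PORB, which makes chlorophyllide in the light, stood at 12.36 and 12.40 in recovered and 8.76 and 8.69 in unrecovered plants and rose by 3.66 ± 0.04 (limma adjusted p = 1.55e-05). CHLI2, of the magnesium chelatase, rose by 2.64 ± 0.10 and the methyltransferase CHLM by 1.37 ± 0.05.

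Among genes encoded in the plastid itself, 20 of 69 measured rose, 3 fell and 46 were not called (median 0.41). The share called, 33.3%, was below the 39.9% of all probe sets. In the test against the change in mock plants fewer were called, 7 more positive and 4 more negative. psaJ of photosystem I rose by 0.86 ± 0.07 and petA of the cytochrome b6f complex by 1.28 ± 0.13. petB, of the same complex, fell by 0.61 ± 0.04, with 13.52 and 13.56 in recovered and 14.17 and 14.14 in unrecovered plants. The 23 calls dropped to 14 with only the 4 arrays compared, to 15 and 14 without recovered replicates 1 and 2, and to 11 without unrecovered replicate 2.

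Among genes of growth, tubulins, the building blocks of microtubules, rose: 5 of 7 measured were higher and 2 were not called (median 1.22). TUB5 had 10.93 and 11.18 in recovered and 7.35 and 7.42 in unrecovered plants and rose by 3.67 ± 0.10. TUB1 rose by 3.43 ± 0.42 and TUB7 by 1.22 ± 0.14. Of 6 measured histone genes HTB11, an H2B, rose by 2.40 ± 0.08 and HON4, with a linker histone domain, by 2.32 ± 0.21, and the other 4 were not called. Their share called, 33.3%, was near the 39.9% of all probe sets.

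Expansins, which loosen cell walls, showed 1 rise and 3 falls among 18 measured, 8 of them at the floor on all arrays. The share called was 22.2%, against 39.9% of all probe sets. EXPA8 had 9.57 and 8.73 in recovered and 4.39 and 3.98 in unrecovered plants and rose by 4.96 ± 0.41. EXLB1, at 3.62 and 3.51 in recovered and 8.91 and 8.77 in unrecovered plants, fell by 5.27 ± 0.15, and EXPA15 fell by 1.74 ± 0.12. The 2 largest changes of the family thus ran in opposite directions. XTH16, of the enzymes that cut and rejoin xyloglucan in the wall, rose by 1.60 ± 0.12. The other 8 measured members of that family were not called, 4 of them at the floor on all arrays, so 1 of 9 was called (11.1%). That count of 1 was 3 among brighter probe sets (2 arrays or more at a log2 of 4 or higher) and 2 without recovered replicate 2, unrecovered replicate 1 or either early mock array.

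Of 16 measured cell division genes 4 fell, 1 rose and 11 were not called (median -0.27), a share of 31.2% called against 39.9% of all probe sets, and with only the 4 arrays compared limma called 0 of them, with 2 at an unadjusted p under 0.05. The list had 2 calls without recovered replicate 2 or either later mock array, 1 without either early mock array, 8 with each array centred on its median and 9 among brighter probe sets. KINESIN-12B, a motor of the division plane, rose by 1.06 ± 0.17 (limma adjusted p = 0.0506 with only those arrays). ICU2, the catalytic subunit of DNA polymerase alpha, fell by 1.64 ± 0.36, and PSF2 of the replicative helicase complex by 0.96 ± 0.22. PSF2 also changed by -0.49 in mock plants, and the difference between these changes was not called (limma adjusted p = 0.363). In the whole list that test called 1 gene more positive and 1 more negative. ICU2 lost its call without any 1 of 6 arrays, those other than recovered replicate 1 and unrecovered replicate 2 (limma adjusted p from 0.0541 to 0.0882). PSF2 lost it without either recovered array, unrecovered replicate 1 or either mock array without recovery (0.0606 to 0.112).

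Sugar transporters of the SWEET family, which let sucrose or hexoses pass across membranes, held 4 falls and 2 rises among 16 measured, 6 of them at the floor on all arrays. The 37.5% called was close to the 39.9% of all probe sets, so the count is no result about the family. SWEET1 had 7.54 and 7.59 in recovered and 10.76 and 10.72 in unrecovered plants and fell by 3.18 ± 0.05. SWEET4 had 2.21 and 2.72 in recovered and 6.95 and 7.17 in unrecovered plants, and its fall was 4.59 ± 0.19. Both, like SAG29, had arrays of the 2 groups far apart.

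In starch metabolism 2 of 7 measured loci rose, 1 fell and 4 were not called, a share of 42.9% called that was near the 39.9% of all probe sets. DPE1, the plastid disproportionating enzyme of starch breakdown, rose by 2.17 ± 0.18, and PWD (AT5G26570), which phosphorylates starch granules, by 1.05 ± 0.09. APL3, a subunit of the enzyme that makes ADP-glucose for starch, fell by 1.95 ± 0.32, a call lost without recovered replicate 1 (limma adjusted p = 0.0519).

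Genes for the breakdown of branched-chain and related amino acids rose in 7 of 9 cases, with 1 fall and 1 gene not called (median 1.38). MCCA, a subunit of methylcrotonyl-CoA carboxylase in leucine breakdown, had 10.55 and 10.78 in recovered and 7.06 and 6.92 in unrecovered plants and rose by 3.67 ± 0.25. MCCB, the other subunit, rose by 1.49 ± 0.14. MGL, which breaks down methionine, fell by 2.17 ± 0.16. For 5 of the 9 genes both recovered arrays were above all 4 mock arrays, the falling MGL among them.

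Autophagy genes, whose products enclose and recycle cell contents, were split within 1 family. Of 11 measured 4 fell and 2 rose (54.5% called, against 39.9% of all probe sets). All 6 belong to the ATG8 tags of the autophagosome membrane, which make up most of the measured list, so this is no result in itself. ATG8E had 10.01 and 10.01 in recovered and 6.57 and 6.41 in unrecovered plants and rose by 3.52 ± 0.14. ATG8F rose by 1.94 ± 0.09, whereas ATG8D, at 7.81 and 7.82 in recovered and 9.0 and 9.14 in unrecovered plants, fell by 1.25 ± 0.07. The 6 calls were 3 without recovered replicate 1 and 3 without unrecovered replicate 2.

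Of 47 UDP-glycosyltransferases, which attach sugars to hormones and plant products, 12 fell and 9 rose, and 11 were at the floor on all arrays. These shares, 25.5% lower and 19.1% higher, were near the 20.9% and 19.1% of all probe sets. UGT73C1 was at 2.19 and 2.19 in recovered and 7.79 and 8.10 in unrecovered plants, a fall of at least 5.76 ± 0.10. UGT76C2, which glucosylates cytokinins, had 6.64 and 6.62 in recovered and 2.73 and 2.69 in unrecovered plants and rose by 3.92 ± 0.12. Of 6 flavonoid genes 3 fell, namely the flavonol glycosyltransferases UGT78D1 (2.40 ± 0.05) and UGT78D2 (1.97 ± 0.09) and the chalcone isomerase-like CHIL (1.62 ± 0.25). The other 3 were not called, 2 of them at the floor on all arrays. The 50% called stood beside 39.9% of all probe sets.

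Of 11 tau glutathione transferases, detoxifying enzymes, 4 rose and 2 fell (54.5% called, against 39.9% of all probe sets), and 2 were at the floor on all arrays. The rises were 2.41 ± 0.19 for GSTU20, 2.2 ± 0.23 for GSTU27 and 0.81 ± 0.07 for GSTU18. With only the 4 arrays compared, or with values under 4 set to 4, the list had 3 calls. Of 8 antioxidant enzymes 3 rose and 2 fell (62.5% called), and these were 3 calls in all with only the 4 arrays compared. The thylakoid ascorbate peroxidase TAPX had 8.80 and 8.74 in recovered and 6.97 and 7.01 in unrecovered plants and rose by 1.78 ± 0.05. SAPX, the stromal form of the same enzyme, had 7.56 and 7.46 in recovered and 8.80 and 9.20 in unrecovered plants and fell by 1.49 ± 0.17, and the glutathione reductase GR1 fell by 1.07 ± 0.08.

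Of 7 defence peptides PDF1.4, a plant defensin, rose by 4.54 ± 0.64 and the rest were not called (14.3% called, against 39.9% of all probe sets). The list had 2 calls without either later mock array or with the arrays centred, and 4 among brighter probe sets. Of 7 calmodulin-like proteins, which bind calcium, 3 rose and 1 fell (57.1% called, against 39.9% of all probe sets), 4 calls that became 2 without unrecovered replicate 2 or any 1 mock array and 1 with only the 4 arrays compared. CML42 rose by 1.58 ± 0.12 and CML41 by 1.98 ± 0.28, but both calls ended with values under 4 set to 4 (limma adjusted p = 0.348 and 0.162), and that of CML41 also with only the 4 arrays compared (0.0689). CML23 fell by 0.65 ± 0.15, a call lost without any 1 of 6 arrays, those other than recovered replicate 2 and unrecovered replicate 1 (0.0601 to 0.0965), and with only the 4 arrays compared (0.142). Of 12 auxin response genes, 4 of them at the floor on all arrays, 16.7% were called, against 39.9% of all probe sets. GH3.3 fell by 1.44 ± 0.33 and WES1 rose by 1.32 ± 0.33, encoding enzymes that join auxin to amino acids. In the test against the change in mock plants 0 of the list were called (limma adjusted p = 0.191 for GH3.3 and 0.299 for WES1). By limma the list had 0 calls without either later mock array, with 2 at an unadjusted p under 0.05. Without recovered replicate 2, and with only the 4 arrays compared, it had 1 call, of another member than these 2. WES1 lost its call without any array except the 2 early mock arrays (0.0631 to 0.143), with only the 4 arrays compared (0.0867) and with the replicate number as a block (0.0539). GH3.3 lost it with only the 4 arrays compared (0.107), and without either recovered array, unrecovered replicate 2 or either later mock array (0.053 to 0.106).

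Of 6 clock-linked genes 1 fell and 1 rose, 33.3% against 39.9% of all probe sets. XCT, a nuclear protein that sets the pace of the clock, was at 4.76 and 4.76 in recovered and 6.56 and 6.54 in unrecovered plants and fell by 1.80 ± 0.02 (limma adjusted p = 1.41e-05). Both recovered arrays equalled the highest of the mock arrays. GI, the clock protein GIGANTEA, rose by 0.89 ± 0.14, a call that ended with only the 4 arrays compared (0.0722).

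**Figure D4:**
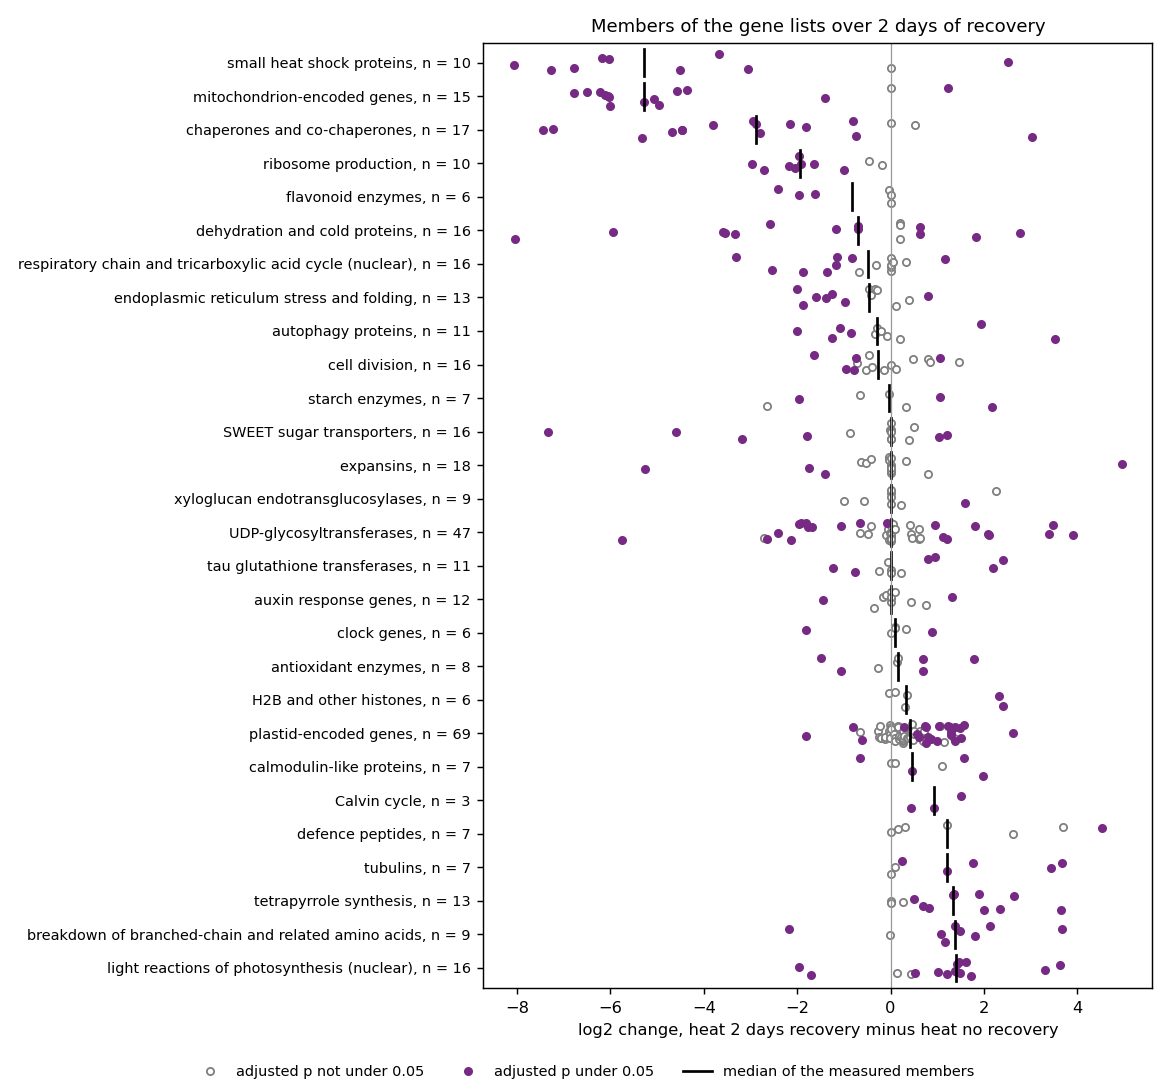
Log2 change between recovered and unrecovered heated plants (x axis) for each measured member of 28 gene lists, ordered by the median of the list (black bar). Filled points have an adjusted p under 0.05. Small heat shock proteins and mitochondrial genes have medians of -5.28, and light reaction genes 1.4, against 0.00 over all probe sets.

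The next question was how near the recovered plants came to mock plants. For 4164 of the 4336 rises both unrecovered arrays were below all 4 mock arrays, and for 4605 of the 4745 falls both were above them. After 2 days the mean of the recovered plants was within 1 log2 unit of the mean of the 4 mock arrays for 97.1% of the rises and 97.8% of the falls, against 39.6% and 42.6% for unrecovered plants. Over all probe sets these shares were 98.3% for recovered and 74.2% for unrecovered plants. The median distance from the mock mean was 0.18 in recovered and 1.22 in unrecovered plants among rises, and 0.13 in recovered and 1.12 in unrecovered plants among falls. These counts use the recovered and unrecovered arrays that also chose the calls and carry no test.

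A stricter view asks for both recovered arrays inside the range of the 4 mock arrays, which held for 1129 rises (26%) and 1727 falls (36.4%), against 48.3% of all probe sets. All probe sets include 5742 at the floor on every array. Arrays of an unchanged gene can also lie outside a range of 4 arrays, so a position outside it does not show a failed return. Of the 4164 rises that started below mock plants, 593 remained below on both arrays and 778 ended above. Of the 4605 falls that started above, 577 remained above and 550 ended below. The rest were inside the range or had arrays in different positions. After 2 days of recovery, against mock plants of the later time, 54 of the 22746 probe sets were called (0.237%), 30 higher (0.132%) and 24 lower (0.106%), with 2878 at an unadjusted p under 0.05. At the end of the heat 9334 probe sets (41%) had been called against mock plants of that time, 4825 higher (21.2%) and 4509 lower (19.8%). The count of 54 depended on the setting: it was 1 with only the 4 arrays compared, 582 among brighter probe sets, and 15 to 431 with any 1 array left out. Leaving out either recovered array gave 431 and 392, either later mock array 244 and 201, and any of the other 4 arrays 15 or 16. Both comparisons with mock plants share arrays with the comparison over the 2 days.

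**Figure D5:**
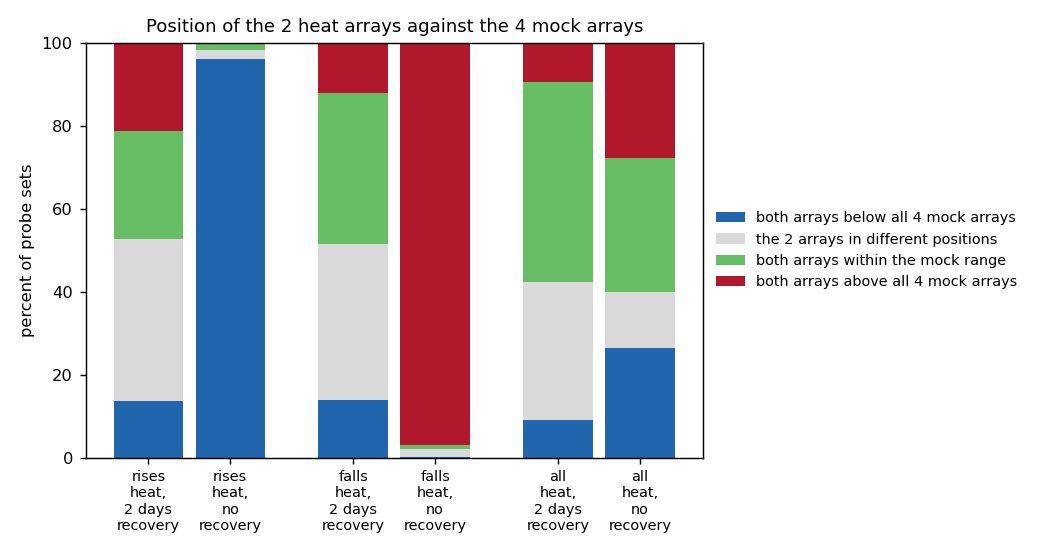
Share of probe sets (percent, stacked to 100) by where the 2 arrays of recovered or unrecovered heated plants lay against the 4 mock arrays, for called rises, called falls and all probe sets tested. Unrecovered plants lay below mock for 96% of rises and above for 97% of falls, and recovered plants are spread over all positions.

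Some falls stopped far above mock plants. AT1G48720 was the farthest, followed by 2 small heat shock proteins. It was at 7.65 and 7.35 in recovered plants, 9.06 and 9.78 in unrecovered plants and 2.18 and 2.18 in mock plants of the later time. Its fall of 1.91 ± 0.27 left it 5.32 ± 0.27 above mock plants (limma adjusted p = 0.0232), while the fall itself was not called with only the 4 arrays compared (0.0677). AT1G53540 remained 4.12 ± 0.28 above (0.0379), AT2G29500 3.51 ± 0.37 (0.0719) and AT2G07741 2.78 ± 0.50 (0.142). The difference of AT1G48720 from mock plants was not called without either early mock array (0.0814), with only the 4 arrays compared (0.106), with the replicate block (0.0751) or with values under 4 set to 4 (0.081). That of AT1G53540 was not called without any 1 mock array or any 1 unrecovered array (0.0597 to 0.104), nor in those 3 settings (0.24, 0.105 and 0.0886).

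Other rises carried recovered plants beyond mock levels. AT3G15720 was at 7.17 and 7.47 in recovered, 2.85 and 3.14 in unrecovered and 3.52 and 3.65 in later mock plants. It rose by 4.33 ± 0.16 and ended 3.74 ± 0.16 above mock plants (limma adjusted p = 0.0173, and 0.0539 to 0.0747 without either unrecovered or either early mock array, 0.155 with only the 4 arrays compared). PDF1.4 was at 7.99 and 8.96 in recovered, 3.46 and 4.41 in unrecovered and 4.80 and 5.19 in later mock plants, 3.48 above the last with an adjusted p of 0.145. CML41, AT4G35720 and AT3G28310 were low in the other 3 groups, at most 2.88, and reached 4.24 and 5.01, 4.94 and 4.07, and 3.82 and 3.56 in recovered plants. Against later mock plants CML41 and AT4G35720 were not called (limma adjusted p = 0.107 and 0.0962). AT3G28310 was (0.0324), but not with only the 4 arrays compared (0.229). AT4G35720 rose by at least 2.33 ± 0.30 and AT3G28310 by at least 1.48 ± 0.09, calls that ended with values under 4 set to 4 (limma adjusted p = 0.336 and 1), and for AT4G35720 with only the 4 arrays compared (0.0607).

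Rises that fell short of mock plants were led by AT3G16670. It had 9.07 and 9.62 in recovered, 4.26 and 4.37 in unrecovered and 11.61 and 11.18 in later mock plants, a rise of 5.04 ± 0.25 that ended 2.05 ± 0.25 below mock plants (limma adjusted p = 0.0852). AT3G05730 had 10.91 and 11.30 in recovered, 3.73 and 6.81 in unrecovered and 12.65 and 12.31 in later mock plants. It rose by 5.83 ± 1.05 and ended 1.37 ± 1.05 below later mock plants, which was not called (limma adjusted p = 0.721). Its unrecovered arrays differed by more than 3 units, and the call ended with only the 4 arrays compared (0.104) and without either recovered array (0.0554 and 0.065). AT4G01700 rose by 1.28 ± 0.36 and AT5G59130 by at least 0.89 ± 0.20. They stayed 2.01 and 1.33 below later mock plants, which was not called (limma adjusted p = 0.137 and 0.111). For AT4G01700 the difference from the change in mock plants was not called either (0.285). AT4G01700 was not called without any array other than recovered replicate 1 (0.0645 to 0.185), with only the 4 arrays compared (0.179), with the replicate block (0.0581) or with values under 4 set to 4 (0.665). AT5G59130 was not called without any 1 unrecovered or mock array (0.055 to 0.106), with only the 4 arrays compared (0.134) or with values under 4 set to 4 (limma adjusted p = 1).

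Falls could also pass below mock plants. EXLB1, the expansin-like gene above, was at 3.62 and 3.51 in recovered plants and at 5.71 and 5.33 in later mock plants, 1.96 ± 0.15 lower in the recovered plants (limma adjusted p = 0.0456, and 0.0549 to 0.116 without any 1 array of heated plants or of early mock plants). It was not called with only the 4 arrays compared (0.245), with the replicate block (0.064) or with values under 4 set to 4 (0.0886). AT3G14200 had 4.31 and 3.99 in recovered, 8.56 and 8.49 in unrecovered and 5.69 and 5.62 in later mock plants and fell by 4.38 ± 0.13. AT3G51750 had 3.18 and 3.2 in recovered, 7.09 and 7.5 in unrecovered and 4.88 and 4.60 in later mock plants and fell by 4.11 ± 0.21. AT3G56290 fell by 1.69 ± 0.17. The recovered plants were 1.43 to 1.55 units below later mock plants in these 3 genes, with adjusted p of 0.0578 to 0.0935.

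A last set was inside the mock range at the end of the heat and left it afterwards or moved within it. This range pools mock arrays of both times, so a gene inside it could still differ from mock plants of its own time. Both unrecovered arrays lay in the range of the 4 mock arrays for 73 of the rises (1.68%) and 39 of the falls (0.822%), against 32.4% of all probe sets. The unrecovered arrays also chose the calls, so these shares carry no test. AT4G35720, described above, had the largest rise from inside the range among probe sets with a listed gene. RING1, a ubiquitin ligase, had 7.33 and 8.23 in recovered and 6.22 and 6.32 in unrecovered plants and rose by 1.51 ± 0.39. AT1G07050 rose by 1.47 ± 0.28 and AT3G06620 by 1.16 ± 0.31, the latter without a called difference from the change in mock plants (limma adjusted p = 0.0547). At the end of the heat AT1G07050 was 1.11 below mock plants of that time, which was called (0.034), and RING1 was 1.28 below, which was not (0.0618). Mock plants of the later time had 6.18 and 6.32 for RING1 and those of the earlier time 7.19 and 7.91, so that their change over the 2 days, -1.30, ran the other way. The falls of AT3G52360 (0.92 ± 0.24), AT1G14200 (0.75 ± 0.12), CML23 and AT4G11570 (0.65 ± 0.07) were smaller. Mock plants changed the same way by -0.50 for AT4G11570, -0.31 for AT1G14200 and -0.19 for AT3G52360, and for none of these 3 was the difference from the change in heated plants called (limma adjusted p = 0.359, 0.136 and 0.204). Leaving out any 1 of 5 arrays ended the call of RING1 (recovered replicate 2, both unrecovered and both later mock arrays, limma adjusted p from 0.0824 to 0.143), as did the fit of only the 4 arrays compared (0.124), and any 1 of recovered replicate 2 and the unrecovered arrays ended that of AT1G07050 (0.0604 to 0.0714). AT3G06620 and AT3G52360 were not called without any 1 array of heated or early mock plants (0.0911 to 0.154 and 0.0857 to 0.16), nor AT3G06620 with the replicate block (0.0735).

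Of the 18 changes called in mock plants over the 2 days 4 were at least 2-fold, all of them rises on probe sets with no gene listed here, the largest 2.05. Those with a listed gene that are named here were smaller. AT5G50010 had 3.32 and 3.30 in later and 2.39 and 2.42 in earlier mock plants, a rise of 0.90 ± 0.01, and 2.42 on all 4 arrays of heated plants. PUB23, a ubiquitin ligase, had 2.82 and 2.80 in later and 3.73 and 3.66 in earlier mock plants, a fall of 0.88 ± 0.03, and lay between 2.79 and 2.81 on the arrays of heated plants. The other named ones were AT4G35070 (0.50) and AT3G06220 (at least 0.44) among the rises and AT1G57630 (at least 0.93) and AT4G19520 (0.53) among the falls. Most of these values were low. All 6 named calls in mock plants ended with only the 4 mock arrays compared, and 5 of them with values under 4 set to 4. Of the 18 probe sets 5 were called in heated plants too, where 39.9% of all probe sets were called, so the overlap is no result in itself. AT4G19520 was among the 5, with 5.08 and 5.09 in recovered and 4.62 and 4.66 in unrecovered plants, a rise of 0.45 ± 0.02.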

How the data were processed

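Affymetrix arrays of 8 biotin-labelled total RNA samples were used, 2 per group. The authors deposited GCRMA log2 values, per the submitters' processing notes (GCRMA corrects background by probe sequence, makes the arrays' distributions equal and gives 1 value per probe set). Its version is not stated there. The values carried no unit as they stood, because the deposited table had lost its decimal points: 0 of 182480 values held a point. The leading digits were 10 to 15 in 10444 values and 21 to 99 in 172036, and 0 values began with 16 to 20. The point was therefore placed after 2 digits in the first case and after 1 digit in the other. The restored values ran from 2.18 to 15.23. Values below 2.3, 31.4% of all, were read as the floor of the scale, and 5742 probe sets were there on every array.

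Means of the 4 groups were fitted with limma 3.58.1 (R 4.3.3) to the 22746 probe sets and all 8 arrays, leaving 4 residual degrees of freedom, with two-sided tests, Benjamini-Hochberg adjustment over all probe sets and a threshold of 0.05. Errors of changes are standard errors, and those of levels are SDs. The script was tested on simulated data. The number of arrays limits the precision, and how the replicates were grown apart is not given, so p-values measure the spread between these samples. The labels name no batch.

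The gene table from the platform annotation gave 1 gene for 13513 probe sets, several for 503 and none here for 8730, and 13436 matched RefSeq genes (TAIR10.1, used for names only). Members and lists were chosen with earlier results of these data known. Loci of small heat shock proteins without a symbol came from a hand-written list. Named were, among probe sets with 1 gene, the 10 largest rises and falls, up to 3 called members with the smallest p of each list and 1 that moved against its median, 4 genes each way farthest from mock plants or changing from inside the mock range, and 3 each way in mock plants and in the difference. The 2 markers EXPA7 and EXPA18 are named as tissue markers, and "brighter" probe sets are those that reached a log2 of 4 on 2 or more arrays. Same-numbered arrays deviated together with a correlation of 0.15 in heated and 0.04 in mock plants, and the numbers were not taken as pairs.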

Additional observations from a re-analysis of the deposited data

Results flagged for a closer look

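The change over the 2 days differed between heated and mock plants for 7350 probe sets by the limma test of the difference (adjusted p under 0.05). Among those with 1 listed gene, the largest positive differences on the log2 scale, heated minus mock, were 8.91 for AT3G15450, 8.0 for AT3G15630 and 7.27 for AT1G23390. The largest negative ones were -10.13 for AT3G02480, -8.04 for AT5G51440 and -8.04 for LEA4-5, and the values of the last pair are minimum sizes, since the recovered plants were at the floor. With 2 arrays in each group, single arrays were not tested against the rest of their group.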

How the results depend on the processing

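The count of 9081 probe sets changed over the 2 days in heated plants ranged from 6199 with only the 4 arrays compared to 9645 with each array centred on its median, and from 7818 to 8264 with 1 array left out. It was 8486 with the replicate number as a block, where the other counts were 9 for mock plants and 6545 for the difference of the changes. The numbers share only a number here and are not a pairing. The count of 7350 for that difference lay between 5610 and 6666 with 1 array left out and reached 8256 in the brighter probe sets. The 18 calls in mock plants became 0 with only the 4 arrays compared (limma, 2162 at an unadjusted p under 0.05), 8 with values under 4 set to 4, and 4 to 361 with 1 array left out. The 54 calls between recovered and later mock plants, for which the alternatives were chosen after seeing the data, became 192 with arrays centred, 582 in the brighter probe sets, 1 with only the 4 arrays compared, 18 with the replicate block, 18 with values under 4 set to 4, and 15 to 431 with 1 array left out, so this count bounds little. Of the rises, 1129 lay in the range of the 4 mock arrays, 340 in that of the 2 later mock arrays, and 4211 within 1 log2 unit of the mock mean. For the falls these were 1727, 761 and 4639. Of 126 named genes 121 were called over the 2 days in heated plants, and 98 of these stayed called under every alternative run. The causes were not tested. Centring and the trend in the variance prior changed no named call for the 2 days in heated plants. In mock plants the trend ended 1 named call and centring ended none. The alternative on promoter motifs was not run, as no promoter sequences were used here. Low signal limits what can be seen: a change of a gene at the floor in either group is a minimum size.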

Other observations

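Among genes chosen after their values were seen, COR27, a clock-linked gene of cold responses, had 8.46 and 9.0 in recovered plants, 8.4 and 8.37 in unrecovered plants, 4.46 and 5.74 in later mock plants and 7.33 and 7.5 in earlier mock plants. It changed by 0.34 over the 2 days in heated plants (limma adjusted p = 0.736) and by -2.31 in mock plants, which was not called. AT1G07050 and RING1 had changes of opposite sign in the same way, at 1.47 and 1.51 in heated plants and -2.12 and -1.30 in mock plants.

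The mitochondrial genes nad6 and ccb203, also chosen after their values were seen, differed between the arrays of recovered plants. nad6 was at 3.38 and 5.02 in recovered plants and at 10.26 and 10.27 in unrecovered plants, and ccb203 was at 2.32 and 3.50 in recovered plants and at 9.42 and 8.85 in unrecovered plants. AT2G07722, with 2.62 and 4.41 in recovered plants and 11.65 and 11.38 in unrecovered plants, had the same order of the recovered arrays.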
